A study of Mus musculus with 108 samples.

Results

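1700020I14Rik (ENSMUSG00000085438) is the mouse form of the long noncoding RNA known as Cyrano or Oip5os1, and it was examined as 1 gene of the 53465 in the count table. The gene was selected on its measured genotype difference, a lower level in mice with 1 mutant copy of Cul3 in each of 9 datasets, so that difference is described here without a test. Bulk RNA-seq was made from cerebellum (CB), cortex (CX) and hippocampus (HIP) of wild-type (WT) and Cul3+/- mice at E17.5 (embryonic), P7 (early postnatal) and P35 (adult). The mutant mice, labelled HET, carry a germline 1-base insertion in exon 6 of Cul3 made with CRISPR-Cas9, they descend from 1 founder line kept on a background written C56Bl/6N in the labels and C57BL/6N in the methods of the study, and the labels name no treatment. Each of the 36 mice gave 1 library per region, so regions of equal age were taken from 1 set of mice and are not independent samples. The 2 adult mice P35_22 and P35_23 have opposite genotypes in the labels and in the sample table of the study and were left out, which left 102 libraries, from 6 WT and 6 Cul3+/- mice at E17.5 and at P7 and 5 of each in adults. The study used males and females of each genotype. Sex was not a term of the main fits, and by the level of Xist the WT embryos did not split evenly.

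Cyrano is a conserved RNA that is abundant in brain. It holds a site that pairs with the microRNA miR-7 along most of its length, and such extended pairing marks a microRNA for destruction instead of silencing the RNA that holds the site. This process, target-directed microRNA degradation, uses a ubiquitin ligase in which CUL3 is the scaffold and ZSWIM8 the substrate receptor, and which acts on the Argonaute protein that carries the microRNA. In brain, miR-7 in turn acts on the circular RNA Cdr1as and on the mRNAs of several neuronal genes. These statements are background, and neither microRNAs nor proteins were measured here.

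The sequences of this pair are shown first, since the RNA is best known by its miR-7 site. The mature microRNAs are from RefSeq (GRCm38.p6) with the seed, bases 2 to 8, in capitals. Both share the same seed, and miR-7a-5p is encoded at chr7:78888295-78888317 (plus strand) and chr13:58392841-58392863 (minus strand) and miR-7b-5p at chr17:56243017-56243040 (plus strand).
mmu-miR-7a-5p: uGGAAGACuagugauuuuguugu
mmu-miR-7b-5p: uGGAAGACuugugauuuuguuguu
The site in the long transcript of the gene, 1700020I14Rik-202, lies in exon 3 at chr2:119602137-119602161 (plus strand, GRCm38, GENCODE M21). Capitals mark its bases that pair with miR-7a-5p, and the lower-case bases are the unpaired ones between the runs.
1700020I14Rik-202 site: ACAACAAAAUCACcaauGUCUUCCA

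The site pairs with bases 11 to 23 of miR-7a-5p without a gap, in a run of 13 bases, and with bases 1 to 8, which hold the seed, and 4 bases of the site and 2 of the microRNA lie unpaired between the runs. A second match to the seed alone stands upstream at chr2:119599964-119599971 and is in both annotated transcripts. The reverse complement of the seed, GUCUUCC, occurs on the sense strand of transcripts of 9776 of 55450 annotated genes (17.6%) and of 12.4% of lincRNA genes. A paired run of at least 10 bases within the 22 bases before such a match was found in 4 genes, and a run of at least 13, the length found in this gene, in 1 gene. This is a description of letters, and binding was not measured in these mice.

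The gene lies on chromosome 2 from 119594297 to 119607502 on the plus strand and is annotated as a lincRNA with 3 exons in each of its transcripts. The short transcript, 1700020I14Rik-201, is 1381 bases long and ends at 119600746, as does the RefSeq gene Oip5os1, so only the 8300-base transcript reaches the extended site. The counts are sums per gene, and the transcripts could not be told apart.

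Library totals ran from 15126114 to 44411282 counts, and 1700020I14Rik alone received between 4692 and 60417 counts in a library. Counting error at these counts is 0.407% to 1.46% of the value, against a coefficient of variation of 3.12% to 12.1% between the libraries of a group. Levels are given as CPM, the usual counts relative to the library total, with totals scaled by the TMM method over all libraries. Cul3, the mutated gene, had fewer CPM in every Cul3+/- library than in every WT library of its dataset, in 9 of 9 datasets, with group means at 50.3% of WT in adult HIP, the lowest, and 61.6% in adult CB, the highest. The summed cerebellar markers (En2, Zic1, Zic2, Barhl1, Pcp2) were at 667 CPM or more in every CB library and at 314 CPM or less in every CX and HIP library. The hippocampal markers (Prox1, Zbtb20, Wfs1) were higher in every HIP library than in every CX library of its period, while in adults 1 WT CB library, at 380 CPM, exceeded the lowest HIP library, at 372 CPM. In these bulk samples, fewer cells of a type and less RNA per cell cannot be told apart.

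1700020I14Rik was among the most abundant long noncoding RNAs of these tissues. Per kb of annotated exon it had 89.4 CPM on average over the 9 WT groups and ranked 8 of the 818 lincRNA genes that passed the count filter in any dataset. On the same scale Malat1, a nuclear RNA of most cells, had 950.3, Norad (listed as 2900097C17Rik), which binds Pumilio proteins, had 314, and Miat and Meg3, both enriched in neurons, had 45.2 and 43.6 CPM per kb.

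The level of 1700020I14Rik in WT mice was higher at P7 than at E17.5 in each region, and it differed between regions. It was lowest in embryonic HIP at 296 ± 18.7 CPM (SD, n = 6 mice), followed by embryonic CX at 398 ± 31.8 and embryonic CB at 408 ± 30.8 CPM (n = 6 each). Early postnatal CB had 608 ± 46.1 CPM, early postnatal HIP 752 ± 46.2 and early postnatal CX 935 ± 76.1 CPM (n = 6 each). Adult HIP had 766 ± 69.8 CPM, adult CX 1034 ± 100.2 and adult CB 1482 ± 57.6 CPM (n = 5 each), the last 5.01 times the level of embryonic HIP. The libraries of neighbours in this order overlapped for embryonic CX and CB, for early postnatal and adult HIP, for adult HIP and early postnatal CX, and for early postnatal and adult CX, and did not overlap for the other neighbours. The Cul3+/- groups stood in the same order, from 273 ± 17.3 CPM in embryonic HIP to 1428 ± 51.3 CPM in adult CB.

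**Figure D1:**
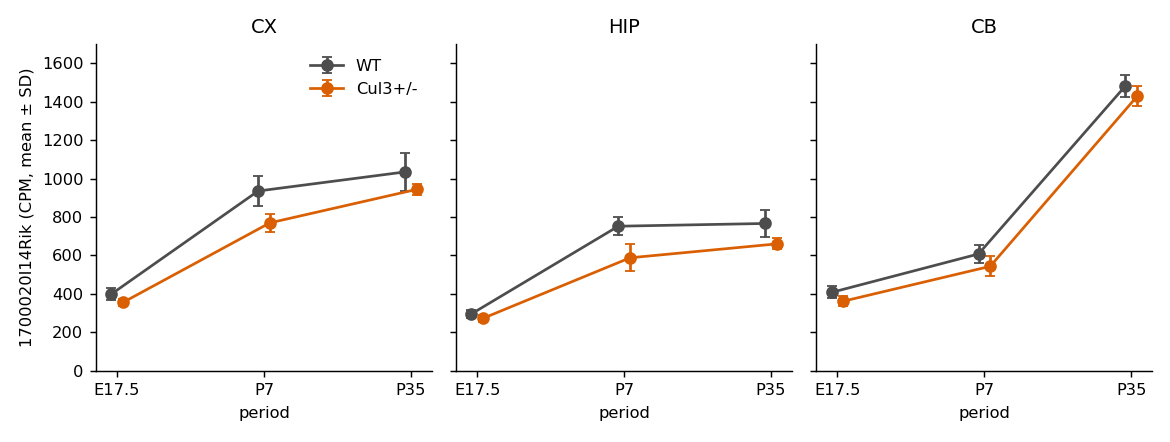
1700020I14Rik level (CPM, y axis, mean ± SD over mice) at the 3 periods (x axis) in CX, HIP and CB of WT mice (grey) and Cul3+/- mice (orange). WT CX rises from 398 to 935 CPM between E17.5 and P7 and HIP from 296 to 752 CPM, while CB has its larger step between P7 (608 CPM) and P35 (1482 CPM), and the orange means lie below the grey ones at each point.

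Between E17.5 and P7 the RNA rose in all 3 regions of WT mice by edgeR's quasi-likelihood test with Benjamini-Hochberg adjustment over all genes. The log2 change was 1.20 in CX (SE 0.075, adjusted p = 7.90e-11), where 81.9% of genes tested were called at an FDR of 0.1. In HIP it was 1.34 (SE 0.068, adjusted p = 1.80e-11), with 78% of genes called. CB had the smallest step, 0.56 (SE 0.058, adjusted p = 1.19e-07), with 71.2% of genes called. Between P7 and P35 the change was largest in CB, which gained 1.31 (SE 0.060, adjusted p = 3.97e-13), with 79.4% of genes called. In CX the change was 0.17 (SE 0.077, adjusted p = 0.0714), with 67.7% of genes called, and this call was lost under upper-quartile normalization (adjusted p = 0.127), without the count filter (0.216) and without replicate 1 or replicate 2 (0.309 and 0.306). In HIP the change was 0.02 (SE 0.070, adjusted p = 0.803), with 62.7% of genes called. With most genes called in each of these comparisons, a call by itself is no mark of 1700020I14Rik. In Cul3+/- mice the same fits gave 1.11 in CX, 1.103 in HIP and 0.57 in CB from E17.5 to P7, and 0.30, 0.17 and 1.40 from P7 to P35.

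Regions of the same WT mice were compared with mouse as a block. At E17.5, HIP was below CX by a log2 difference of -0.39 (SE 0.065, adjusted p = 0.000407 from edgeR, 46.5% of genes called) and below CB, which exceeded it by 0.44 (SE 0.065, adjusted p = 0.000105, 49.5% called). CB and CX differed by 0.05 (SE 0.065, adjusted p = 0.511, 61.7% called), less than their spread. At P7, CX was the highest region. HIP was below it by -0.33 (SE 0.051, adjusted p = 8.64e-05, 57% called) and CB by -0.60 (SE 0.051, adjusted p = 2.97e-08, 82.9% called), and CB was below HIP by -0.27 (SE 0.051, adjusted p = 0.000176, 78.2% called). In adults CB was the highest, above CX by 0.52 (SE 0.064, adjusted p = 1.14e-05, 75.4% called) and above HIP by 0.98 (SE 0.065, adjusted p = 2.67e-08, 75.1% called), and HIP was below CX by -0.46 (SE 0.064, adjusted p = 8.70e-05, 51.5% called). The same fits in Cul3+/- mice gave the same signs for all 9 pairs, and the pair of HIP and CB at P7, -0.06 (SE 0.066, adjusted p = 0.472), did not pass there. Whether this pair differed between genotypes was not tested.

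The place of CB among the regions of a mouse thus changed at both steps. The log2 level of CB minus that of CX ran from -0.18 to 0.18 over the 6 WT embryos, from -0.75 to -0.53 over the 6 WT mice at P7 and from 0.36 to 0.63 over the 5 WT adults. CB was below CX in 6 of 6 mice at P7 and above it in 5 of 5 adults. The mean difference between these periods was 1.1445 (exact 2-sided permutation test, p = 0.00433, the smallest that 6 against 5 mice can give, adjusted p = 0.00649 over 18 such tests). CB minus HIP moved in the same way, from a mean of 0.46 at E17.5 to -0.31 at P7 and 0.96 in adults, with adjusted p = 0.00649 in the exact test for each step. HIP minus CX was negative in every WT mouse, with means of -0.43, -0.31 and -0.43. It did not pass between any periods in WT mice (adjusted p of 0.242 to 0.944, exact permutation test). In Cul3+/- mice it changed by -0.14 from E17.5 to adults (adjusted p = 0.048, exact permutation test). Between the other periods it did not pass in Cul3+/- mice (adjusted p of 0.928 and 0.242, same test). These tests were added after the levels had been seen.

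**Figure D2:**
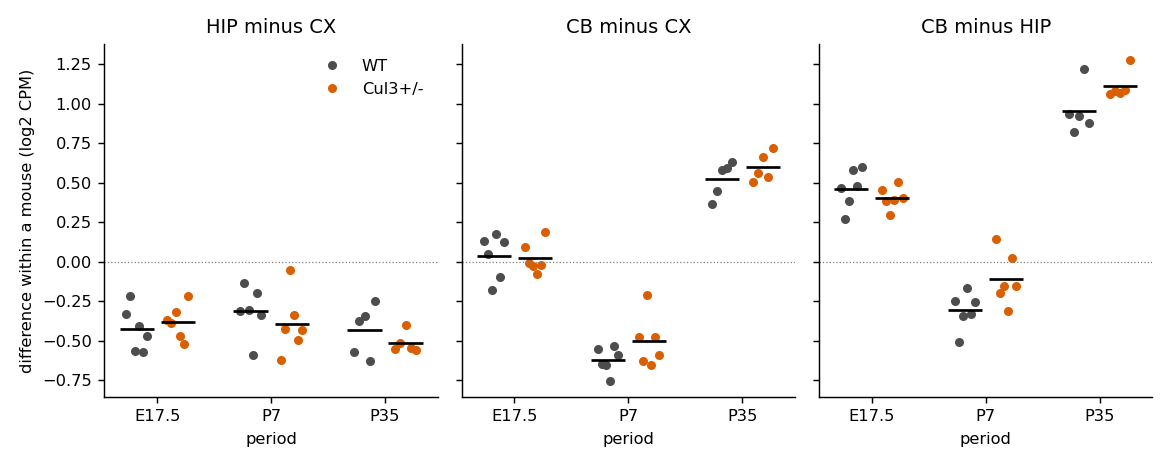
Difference in 1700020I14Rik level between pairs of regions of the same mouse (log2 CPM, y axis) at the 3 periods (x axis), with WT mice in grey, Cul3+/- mice in orange, 1 point per mouse and a line at each group mean. CB minus CX is below 0 in all 12 mice at P7 and above 0 in all 10 adults, and HIP minus CX is below 0 in all mice.

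Within each period and region, the level in Cul3+/- mice was lower than in WT mice by amounts that ran from a log2 fold change of -0.34 in early postnatal HIP to -0.09 in adult CB (edgeR, fitted within each dataset), with a median of -0.15, a fitted ratio of 90.2% of WT. Of the 51 Cul3+/- libraries, 49 were below the WT median of their dataset and 30 were below every WT library of it. The fits scale libraries within a dataset and the CPM over all libraries, so a fitted ratio and a ratio of mean CPM can differ, most in adult CB at 93.8% and 96.4% of WT.

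In embryonic CX the 6 WT libraries ran from 359 to 446 CPM with a median of 396, and the 6 Cul3+/- libraries from 333 to 381 CPM with a median of 348. In embryonic HIP the WT libraries ran from 271 to 323 CPM (median 300.1) and the Cul3+/- libraries from 251 to 296 (median 269). In embryonic CB the ranges were 362 to 454 CPM (median 412) in WT and 327 to 392 (median 373) in Cul3+/- mice. The genotypes overlapped in all 3 embryonic regions, where 4, 3 and 2 of 6 Cul3+/- libraries lay below every WT library. The log2 fold changes of these datasets, in the order CX, HIP and CB, were -0.19 (SE 0.068), -0.14 (SE 0.066) and -0.15 (SE 0.062), and the Cul3+/- means were 89.3%, 92.3% and 88.8% of WT. These fits do not pair the samples. With replicate number as a block, embryonic CX had -0.18 (SE 0.051).

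With all libraries used, the differences were largest in early postnatal CX and HIP. In CX the WT libraries ran from 834 to 1038 CPM (median 928) and the Cul3+/- libraries from 711 to 817 (median 777). In HIP the ranges were 691 to 808 CPM (median 755) in WT and 486 to 685 (median 590.2) in Cul3+/- mice. All 6 Cul3+/- libraries were below all 6 WT libraries in both regions, as were those of 0.0962% of the genes tested in CX and of 0.0507% in HIP, a background from which nothing is read here because the gene was chosen on this contrast. In CB the ranges, 533 to 666 CPM (median 607) in WT and 468 to 615 (median 539) in Cul3+/- mice, overlapped. The log2 fold changes were -0.27 (SE 0.062) in CX, -0.34 (SE 0.080) in HIP and -0.13 (SE 0.061) in CB, with Cul3+/- means at 82.3%, 78.2% and 89.4% of WT.

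In adult CX the 5 WT libraries held 923, 950.5, 1031, 1115 and 1153 CPM and the 5 Cul3+/- libraries 911, 923, 936, 972 and 977 CPM. Adult HIP had 666, 749.8, 777, 778 and 861 CPM in WT and 619, 655, 662, 668 and 698 CPM in Cul3+/- mice. Adult CB had 1422, 1427, 1485, 1523 and 1553 CPM in WT and 1381, 1383, 1418, 1462 and 1498 CPM in Cul3+/- mice. The genotypes overlapped in each adult region, and in HIP only 1 WT library, the lowest, lay within the Cul3+/- range. The log2 fold changes were -0.12 (SE 0.054) in CX, where it was -0.07 without WT replicate 1, -0.21 (SE 0.058) in HIP and -0.09 (SE 0.046) in CB, with Cul3+/- means at 91.2%, 86.2% and 96.4% of WT. Whether the difference varied between regions or periods was not tested, since the contrast had chosen the gene.

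**Figure D3:**
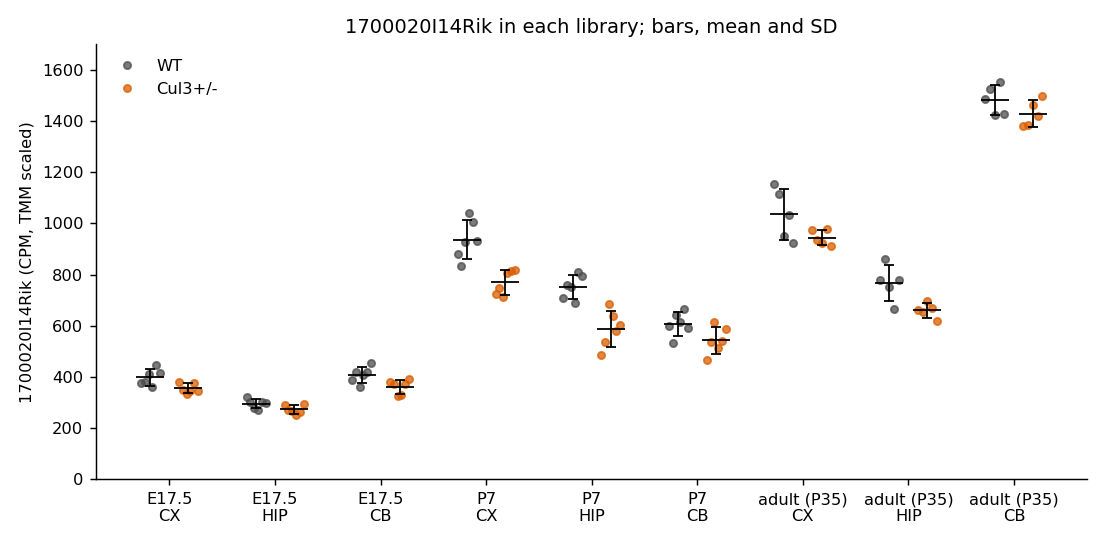
1700020I14Rik (CPM, y axis) in each library of the 9 datasets (x axis), WT in grey and Cul3+/- in orange, with the mean and SD of each group in black. The colours separate fully in early postnatal CX and HIP and overlap in the other 7 datasets, and the mean of Cul3+/- libraries is lower in each.

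Averaged over the 3 regions of a mouse, as the log2 level minus the WT mean of the region, the difference was -0.15 at E17.5, -0.27 at P7 and -0.13 in adults, or 90.2%, 83.0% and 91.3% of WT. At E17.5 the WT mice ran from -0.09 to 0.08 and the Cul3+/- mice from -0.25 to -0.06. At P7 the WT mice ran from -0.11 to 0.11 and the Cul3+/- mice from -0.41 to -0.17. In adults the WT mice ran from -0.07 to 0.11 and the Cul3+/- mice from -0.15 to -0.10. The genotypes overlapped at E17.5 and not at P7 or in adults, where 0.162% and 0.21% of the 14777 genes tested in all datasets showed the same separation in the same direction. All 17 Cul3+/- mice had a mean below 0. Of these mice 14 were below the WT mean in all 3 regions and 3 in 2 regions, while 4 of 17 WT mice were below it in all 3.

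**Figure D4:**
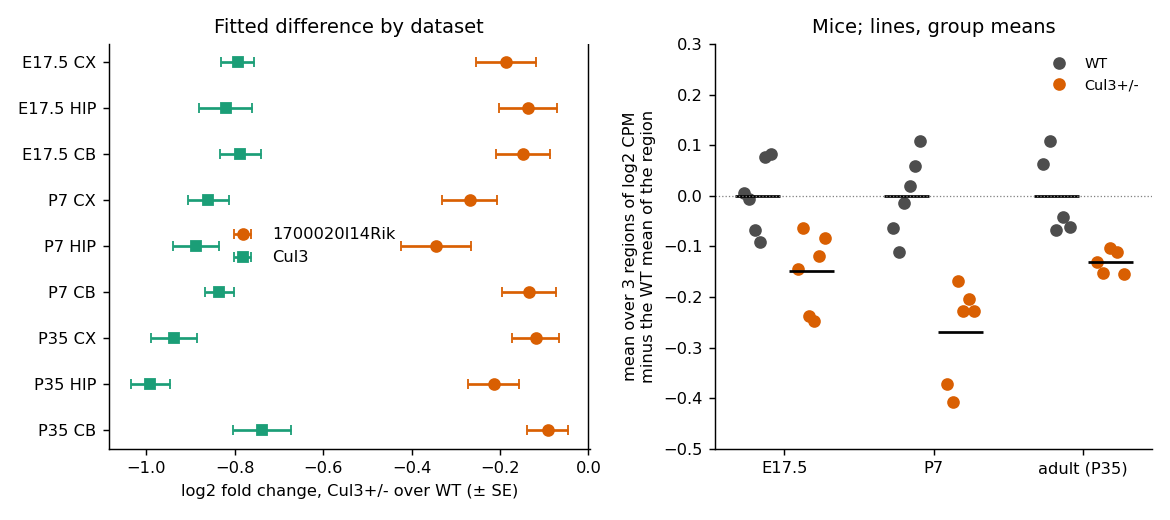
Left, log2 fold change of Cul3+/- over WT mice (x axis, ± SE) of 1700020I14Rik (orange circles) and Cul3 (green squares) in each of the 9 datasets. Right, the 1700020I14Rik level of each mouse averaged over its 3 regions (log2 CPM minus the WT mean of the region, y axis) at the 3 periods, with a line at each group mean. The orange circles on the left lie between -0.34 and -0.09 and the green squares between -0.99 and -0.74, and on the right the genotypes do not overlap at P7 and P35.

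A mouse with a low level in 1 region was only weakly low in the others. After the group mean was subtracted, Pearson's r over the 34 mice was 0.12 between CX and HIP, 0.34 between CX and CB and 0.35 between HIP and CB, where the points share the mouse and whatever handling its regions shared. Mice at E17.5 and P7 carry a name prefix whose meaning the labels do not give. Within prefixes, Cul3+/- minus WT was -0.10, -0.16 and -0.18 for S2, S3 and S4 at E17.5 (2 against 2 mice each) and -0.30, -0.22 and -0.34 for C1, C2 and C4 at P7 (2 against 2, 3 against 3 and 1 against 1).

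The adult mice left out were not used to choose the gene. The library labelled WT of P35_23 held 1112 CPM in CX, 763 in HIP and 1562 in CB, and that labelled HET of P35_22 held 977, 632 and 1357 CPM. P35_23 exceeded P35_22 in each region, in a comparison of single mice that was not tested. Cul3 was between 195 and 221 CPM in the first mouse and between 95.5 and 117 CPM in the second, where the adults used ran from 160.2 to 215 CPM in WT and from 92.0 to 126 CPM in Cul3+/- mice. In each region Cul3 in P35_23 was above every Cul3+/- library used, and in P35_22 it was below every WT library used. The Cul3 levels thus go with the labels of both mice and not with the sample table. With both mice put back by their labels, the adult log2 fold changes of 1700020I14Rik were -0.14 in CX, -0.23 in HIP and -0.11 in CB. With the genotypes of the sample table, which the Cul3 levels do not match, they were -0.06, -0.13 and -0.04.

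Markers of cell types also differed between libraries or genotypes in some datasets, and their relation to the level was not tested. In early postnatal HIP the Cul3+/- library with the lowest level, 486 CPM, had a summed level of 4210 CPM for the 5 choroid plexus markers (Ttr, Folr1, Kl, Clic6, Kcne2), against 8.09 to 37.7 CPM in the other Cul3+/- and 10.6 to 157 CPM in the WT libraries. Without libraries above 1000 CPM for these markers, the log2 fold change there was -0.30 (SE 0.067), and over the 9 datasets it ran from -0.30 to -0.10. In adult HIP, where 2 WT libraries and no Cul3+/- library were above 1000 CPM, it was -0.29 (SE 0.050) without them, larger in size than the -0.27 of early postnatal CX. Such libraries numbered 4 in Cul3+/- and 1 in WT mice in early postnatal CB, 2 and 2 in adult CB, and 1 in WT mice in embryonic HIP, where the values without them were -0.16, -0.10 and -0.13. In adult CB the libraries used that were highest in choroid plexus markers, at 3007 CPM in WT and 2072 CPM in Cul3+/- mice, held the highest 1700020I14Rik level of their genotype. All 8 neuron markers (Rbfox3, Snap25, Syt1, Stmn2, Tubb3, Map2, Elavl4, Nefl) were measured, and their sum in early postnatal HIP ran from 5384 to 6203 CPM in WT and from 4594 to 6084 CPM in Cul3+/- libraries. Per 1000 CPM of neuron markers, 1700020I14Rik was at 123 to 136 CPM in WT and 92.4 to 123 in Cul3+/- libraries of that dataset, and at 118 to 143 and 99.2 to 109 in early postnatal CX. The mean of this ratio in Cul3+/- mice was 82.5% of WT in early postnatal CX, 84.0% in early postnatal HIP and 87.6% in adult HIP, and between 91.4% and 94.4% in 5 other datasets. In embryonic HIP the mean ratio was 100.1% of WT, where the neuron markers themselves were at 93.5%, and the medians of the ratio were 88.1 in WT and 82.5 in Cul3+/- libraries. With the log2 sum of the neuron markers as a covariate, the difference ran from -0.27 to -0.10 over the 9 datasets. Among oligodendrocyte markers, Mbp had log2 fold changes of -0.22 in early postnatal CX and -0.27 in early postnatal HIP, Mag -0.38 and -0.34, and Mobp -0.91 and 0.09. The summed endothelial markers (Cldn5, Flt1, Pecam1, Kdr, Tek) ran from 180 to 205 CPM in WT and from 195 to 249 CPM in Cul3+/- libraries of early postnatal HIP, with a median log2 fold change of 0.17. Over the 9 datasets, 8 of the 45 endothelial tests gave a negative value, and the median was positive in each dataset. An unadjusted p under 0.05 (edgeR) came in 11 of these 45 tests, beside 4.99% of all tests, and none was called. For microglia markers it came in 8 of 45 tests and for choroid plexus markers in 14 of 35. DESeq2 called the neuron marker Nefl in embryonic CB (-0.28, adjusted p = 0.00103). In adult CB it called the neuron marker Tubb3 (0.13, adjusted p = 0.0121) and the microglia marker Tmem119 (0.45, adjusted p = 0.0104). The likelihood ratio test made 1 call among the microglia markers. Nefl and Tubb3 are part of the neuron sum used above. No marker of the 8 cell types and 4 regions listed was at 0 in all libraries of early postnatal CX or HIP, and the part of cell make-up in the difference was not tested beyond these values.

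Of 14777 genes tested in all 9 datasets, 93 (0.629%) had a negative log2 fold change in each, and 134 a positive one. Over all 14777 genes, 141 (12 of them lincRNA genes) had a median at or below that of 1700020I14Rik, itself included, and within single datasets its log2 fold change stood between percentile 1.23 (early postnatal HIP) and percentile 31.3 (adult CB) of the genes tested. It had the 10th lowest median among the 93, and its smallest difference, -0.09, was equalled or exceeded in size by those of Cul3 and Gm17322 alone. The others of the 10 lowest medians included Cul3 (-0.83), the lincRNA 1700048O20Rik (-0.31), the sense intronic RNA Gm45311 (-0.18) and the costimulatory ligand Cd86 (-0.18). The rest were the neuronal calcium sensors Vsnl1 (-0.17) and Hpcal4 (-0.15), the calcium-binding protein Gca (-0.17), Angel1 (-0.16) and Rgs7bp (-0.15). Rgs7bp anchors RGS proteins at the membrane. Of all these others, Cul3, Vsnl1, Hpcal4 and Rgs7bp had mean levels of 149, 110, 265 and 143 CPM. The other 5 had less than 7 CPM, against 679 CPM for 1700020I14Rik. Of 245 lincRNA genes tested in all datasets, 3 were lower in each, 1700020I14Rik, 1700048O20Rik and Gm17322. Without pairing of samples, the quasi-likelihood test called Cul3 in each dataset and no other gene, 9 of 156039 tests (0.00577%). With a block for replicate number it made 63 calls, of which 55 were in embryonic CX. There the numbers were taken to pair the samples from a correlation, and the labels give no pairing. With the mouse-name prefix as a block at E17.5 and P7 it made 9 calls. The unadjusted p was under 0.05 for 277 (embryonic CX) to 2459 genes (adult CB), 4.99% of all tests, and 49.2% of all tests gave a negative value. DESeq2 called 241 over the 9 datasets, of which 218 were in adult CB.

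**Figure D5:**
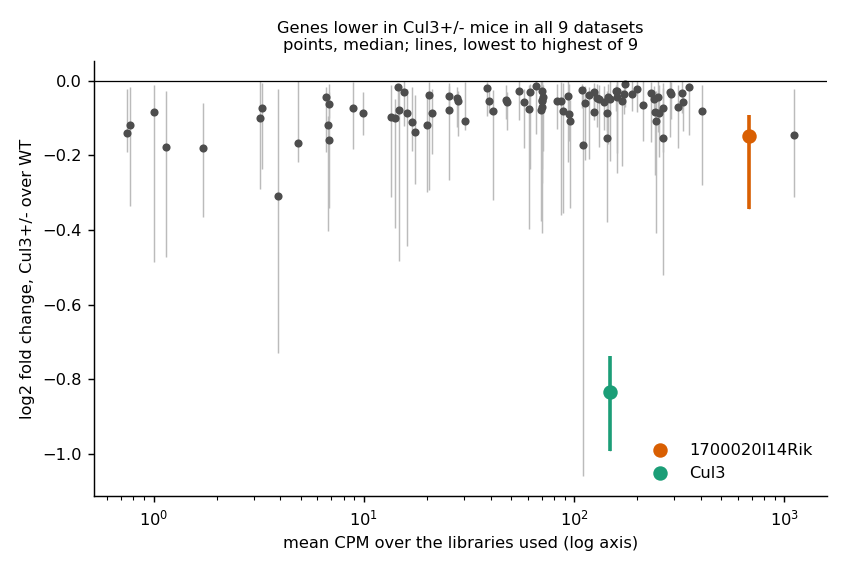
Genes with a lower level in Cul3+/- mice in all 9 datasets, as the median (points) and range (lines) of their 9 log2 fold changes (y axis) against their mean level (CPM, x axis, log scale), with 1700020I14Rik in orange and Cul3 in green. 1700020I14Rik lies at 679 CPM with a median of -0.15 and a range of -0.34 to -0.09, and 1 other gene of the 93 has a mean level as high.

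Of the 10 listed genes of the ligase and of Argonaute, Cul3 was called in 9 of 9 datasets and the other 9 in none, with 5 of their 81 tests at an unadjusted p under 0.05, beside 4.99% of all tests, and no call by DESeq2 or the likelihood ratio test. Zswim8, the receptor that directs the ligase in microRNA degradation, had 121 CPM in WT and 119.6 CPM in Cul3+/- libraries on average and was lower in 5 of 9 datasets, with log2 fold changes of -0.30 to 0.11. The RING protein Rbx1 had a median log2 fold change of -0.02, the adaptors Elob and Eloc 0.02 and -0.04, and the ubiquitin ligase Arih1 -0.05, the last lower in 7 of 9 datasets. Ago2, the most studied Argonaute, had a median of 0.02 with values from -0.60 to 0.22, and Ago1, Ago3 and Ago4 had medians of -0.01, 0.01 and -0.05.

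Of the 8 listed genes around miR-7, 7 are in the count table and 2 passed the filter. These were Hnrnpk, which holds Mir7-1, 1 of the 2 genes of miR-7a, with a median of -0.04, and Chpf2, which neighbours the microRNA miR-671, with a median of 0.03, and neither was called or had an unadjusted p under 0.05. The hairpin genes Mir7-2, Mir7b and Mir671 were at 0 in every library used, and Mir7-1 reached 0.0347 CPM. The row of Cdr1 reached 1.05 CPM and was not tested, and no value is given for the circular RNA Cdr1as, which the row cannot be matched to. Mature miR-7 was not measured.

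Genes known as miR-7 targets had no call by edgeR or DESeq2 in 81 tests, of which 43 gave a negative value, beside 49.2% of all tests, and 4 an unadjusted p under 0.05, beside 4.99%. The kinase genes Pak1 and Egfr had median log2 fold changes of -0.01 and 0.02, and the insulin signalling genes Irs1, Irs2 and Igf1r had -0.03, -0.003 and 0.05. The transcription factors Klf4 and Pax6 had medians of 0.11 and -0.06. The median over the 9 genes was -0.003, beside 0.0006 over all genes tested in all datasets. Of other RNAs known to trigger the decay of a microRNA, Nrep, which acts on miR-29b, had 780.5 CPM in WT libraries, a median of -0.10 and a smallest adjusted p of 0.612 (edgeR). Bcl2l11 had a median of 0.03 and a smallest adjusted p of 0.561 (edgeR).

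Of 23 other long noncoding RNAs listed, 22 were tested in all datasets, 1 of them was lower in each and none was called by the quasi-likelihood test, with 12 of 204 tests at an unadjusted p under 0.05, beside 4.99% of all tests, 1 call by the likelihood ratio test and 2 calls by DESeq2, of Kcnq1ot1 and Snhg11 in adult CB (both -0.63 on the log2 scale). That gene was Tug1, with a median of -0.04 and values down to -0.14. The highest by CPM were Malat1, with 6486 CPM in WT and 6650 in Cul3+/- libraries and a median of 0.08, Norad, with 1492 and 1466 CPM and a median of -0.01, and Meg3, with 784 and 792 CPM and a median of 0.12. The median over the list was 0.05, and by dataset it ran from -0.13 in adult CB and -0.11 in early postnatal CX to 0.12 in early postnatal HIP.

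No annotated gene overlaps 1700020I14Rik, and its neighbours had log2 fold changes of both signs. Chp1, a calcineurin-like protein gene on the same strand that ends upstream at position 119587027, had 78.7 CPM in WT and 79.1 in Cul3+/- libraries and log2 fold changes of -0.07 to 0.07, with 4 of 9 below 0. Oip5, a centromere protein gene on the opposite strand that ends 2010 bases beyond it, had 2.54 and 2.70 CPM, was tested in 8 datasets and was lower in 2. Of the 25 genes within 500 kb that were tested in all datasets, none was lower in all 9, beside 0.629% of all genes, none was higher in all 9 and none was called by edgeR or DESeq2, and 17 of the 258 tests of all neighbours had an unadjusted p under 0.05, beside 4.99% of all tests.

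Over the 18 group means of log2 CPM, which share their periods and regions, the 5 genes most alike by Pearson's r among 20135 were Fbxo9 (0.98), an F-box protein, the potassium channel Kcnk12 (0.97), the Golgi protein Dym (0.97), the LGI1 receptor Adam22 (0.97) and the calcium pump Atp2a2 (0.97), and 27.2% of genes had r above 0.5. Over the deviations of the 102 libraries from those means, which share a library's depth, quality and cell make-up, they were Frrs1l (0.72), an AMPA receptor assembly factor, the nucleic acid binding protein Purb (0.69), Rgs7bp (0.67), the deubiquitinase Usp46 (0.67) and Slmap (0.66), and 0.810% had r above 0.5. Cul3 had r of 0.11 over the means and 0.35 over the deviations. Frrs1l and Rgs7bp were also lower in Cul3+/- mice in all 9 datasets, with medians of -0.06 and -0.15.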

How the data were processed

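The authors sequenced ribosome-depleted, stranded total RNA of 108 libraries from 36 mice and deposited a table of expected counts per gene over 53465 genes. The submitters' processing notes name Cutadapt 1.14, STAR 2.5.3a, RSEM 1.3 and GRCm38.p5. The strand setting of the counting is not given in the sources used here. The 5.76% of deposited expected counts that were not whole were rounded.

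Genotypes were compared within each of 9 period-by-region datasets with edgeR 4.0.16 in R 4.3.3, as TMM library sizes, filterByExpr (minimum count 10, minimum total 15), the quasi-likelihood F test and Benjamini-Hochberg adjustment over all genes tested, called at an FDR of 0.1. Regions were compared within genotype and period with mouse as a block, and periods within genotype and region. CPM were computed over all libraries with a prior count of 2 on the log2 scale. Mice P35_22 and P35_23, 6 libraries, were left out. Mouse means and differences between regions used these log2 values, the latter with exact 2-sided permutation tests. The main genotype, region and period fits were tested on simulated counts with known changes, in a part of the comparisons. The other steps were not tested in this way. The share of small changes that the fits recover is not reported here, so a gene without a call may still differ.

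The alternatives tried were DESeq2 1.42.0, upper-quartile normalization, testing without the filter, the likelihood ratio test, RUVs factors, blocks, Xist as a covariate, other genotypes for the mice left out, and leaving out each replicate. The neuron covariate, the removal of libraries with choroid plexus markers, and the alternatives for mouse means were added after seeing the data. Counting intervals cover counting error only. The labels do not tell whether mice share litters. Pairing by replicate number was checked by the correlation over genes of same-numbered WT and Cul3+/- samples. Every pair exceeded 0.1 in embryonic CX (0.114 to 0.756, median 0.472), which was taken as paired. The main fits nevertheless have no block in any dataset, and the replicate block is given as an alternative. In each of the other 8 datasets at least 1 pair did not, with medians from -0.06 in early postnatal HIP to 0.33 in embryonic HIP and 0.29 in embryonic CB, whose numbers name the same mice as in embryonic CX.

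The gene and all lists were chosen with earlier results of these data known. Named genes were those listed around the CUL3 ligase, miR-7 and long noncoding RNAs, neighbours within 500 kb, the 10 genes lower in all 9 datasets with the lowest median, and the 5 genes most alike by each correlation. Some listed genes are not reported here. Sequences are from RefSeq (GRCm38.p6) and GENCODE M21.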

Additional observations from a re-analysis of the deposited data

Results flagged for a closer look

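The difference in 1700020I14Rik between CB and CX of the same mouse differed between P7 and P35 by 1.1445 on the log2 scale in WT mice and by 1.102 in Cul3+/- mice, by an exact 2-sided permutation test over mice (adjusted p = 0.00649 for each, over 18 tests). CB minus HIP in WT mice changed by -0.77 from E17.5 to P7 and by 1.26 from P7 to P35, with the same adjusted p in the exact test. The library labelled WT of mouse P35_23, which the comparisons did not use, held 1562 CPM of 1700020I14Rik in CB, above the 5 adult WT libraries used there, of which the highest held 1553 CPM. No library stood apart in Dixon's test over 42 group sets.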

How the results depend on the processing

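The log2 fold change of 1700020I14Rik was negative in all 9 datasets under each of the 25 alternatives run and ran from -0.40 to -0.04. Of the 225 values, 26 equal the reported one, since the setting did not touch the dataset, and all moved by less than the SD between libraries of a group (log2, mean of both groups). Of these, 5 moved by more than the SE of the reported value, in the 3 adult datasets with the genotypes of the sample table, in adult HIP without choroid-rich libraries and in early postnatal HIP with the neuron covariate (-0.25). Without 1 replicate it ran from -0.40 to -0.30 in early postnatal HIP and from -0.15 to -0.07 in adult CX, where leaving out WT replicate 1 gave the value nearest to 0. The adult mouse mean was -0.072, and not -0.13, with the genotypes of the sample table of the study, which the Cul3 levels of the mice left out do not match. With the replicate number as a block the 9 values ran from -0.35 to -0.09. Calls summed over the 9 datasets were 63 in place of 9, with 55 of them in embryonic CX. Under this block the call of Cul3 in adult CB was lost (-0.73, adjusted p = 0.114 from edgeR). That call was also lost without choroid-rich libraries (-0.70, adjusted p = 0.706), and the Cul3 calls in adult CX, HIP and CB were lost with the genotypes of the sample table (-0.58, -0.64 and -0.44). Calls over the 9 datasets were 241 with DESeq2, 167 with the likelihood ratio test, 576 and 1511 with 3 and 5 RUVs factors, 22 without libraries high in choroid plexus markers and 6 with the genotypes of the sample table, and 9 to 14 without 1 replicate. Adult CB alone held 218 of the DESeq2 calls and 150 of the likelihood ratio calls. The causes were not tested. Genes lower in all 9 datasets numbered 43 with the neuron covariate, 67 with upper-quartile normalization, 129 without the filter, and 50 to 139 without 1 replicate, lowest without WT replicate 5 and highest without WT replicate 1. The change in WT CX from P7 to P35 was 0.14 under upper-quartile normalization, 0.13 without the filter, and 0.11 to 0.20 without 1 replicate. Cul3+/- mice gave -0.056 for HIP to CB at P7 and 0.17 for HIP from P7 to P35. Other region and period calls kept their side of the threshold in the alternatives run. Depth was no limit for this gene, at 4692 counts or more.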
